A study of Mus musculus and blank sample with 91 samples.

Results

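The bacterial family Erysipelotrichaceae was followed in the feces of naïve, adjuvant-treated and EAE mice over the course of disease. Its members were the amplicon sequence variants (ASVs) that the deposited taxonomy places in this family, 128 of 2295 ASVs in all, and their counts were summed by genus, by species and over the family in each sample. The samples came from female C57BL/6 mice that, per the study's methods, were bought as C57BL/6J at 8 weeks of age. Naïve mice received no treatment. CFA mice received Complete Freund's Adjuvant (CFA) only, a mineral oil emulsion with killed mycobacteria that activates innate immunity. EAE mice, the model of multiple sclerosis called experimental autoimmune encephalomyelitis, received 50 µg of the myelin peptide MOG35–55 in the same adjuvant and 250 ng of pertussis toxin on days 0 and 2, so EAE and CFA mice differed in both peptide and toxin. Feces were taken 2 days before immunization (-2 dpi, days post-immunization) and then at 8, 14, 19 and 29 dpi. Each of the 15 groups of treatment and day held 6 mice, except CFA mice at 29 dpi and EAE mice at 14 dpi with 5 each. Mice were housed 2 to 3 per cage and treatments were assigned by cage. The labels do not name the cages, so cage and treatment cannot be told apart and mice of 1 cage are not independent. The same animals were sampled at each day. EAE mice carry other numbers from 14 dpi on (588, 589, 591, 593, 594 and 595), which the deposited sample table ties to the mice 550, 551, 553, 555, 556 and 557 of the earlier days.

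Erysipelotrichaceae are Gram-positive anaerobes of the Bacillota that live in the gut of mammals. Turicibacter is a spore-forming inhabitant of the small intestine and colon of mice that has been linked to bile acid and lipid metabolism. Dubosiella and Longibaculum were described from the mouse gut, and members of Absiella and Erysipelatoclostridium ferment sugars to short-chain acids. The question of the comparisons was how this family moved between treatments before onset (8 dpi), at onset (14 dpi), at the peak (19 dpi) and in the chronic phase (29 dpi).

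Nearly all counts of the family came from 1 genus in these mice. Turicibacter, named Turicibacter sanguinis at the species rank, held 876824 of the 892659 counts of the family, or 98.2%, and had counts in 72 of 88 samples. Erysipelatoclostridium-Clostridium XVIII (Erysipelatoclostridium cocleatum) held 0.893% in 17 samples. Absiella/Eubacterium D (Absiella dolichum) held 0.760% and was found in more samples, 29, at lower levels. Longibaculum/Candidatus Stoquefichus (Longibaculum muris-KLE1796) held 0.0968% in 4 samples, and Dubosiella (Dubosiella newyorkensis) 0.0246% in a single sample. Each genus carried 1 species name, so sums by species equal sums by genus. The family had counts in 81 samples and was at 0 in 7.

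The number of ASVs did not measure diversity in this family. The 128 ASVs still carried the amplification primers, which vary at 4 positions, and without the primers they came down to 41 distinct sequences. One of these, the most abundant Turicibacter sequence of 427 bases, was listed as 28 ASVs that differed only in the primers and held 876369 counts, 98.2% of the family. The other 33 Turicibacter sequences, 62 ASVs in all, held 455 counts together, at most 74 counts each, and appeared in 29 samples. Absiella/Eubacterium D had 4 sequences (2844, 2597, 1188 and 153 counts in 13, 17, 1 and 1 samples), and the remaining 3 genera had 1 each. Its sequence of 153 counts and some Turicibacter sequences of at most 43 counts included ASVs not matched by both primers. Such sequences may repeat others of the 41. Of the 128 ASVs, 86 occurred in a single sample. The 35 ASVs with counts in at least 3 samples could be tested, namely 28 of Turicibacter, 4 of Absiella/Eubacterium D and 3 of Erysipelatoclostridium-Clostridium XVIII.

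**Figure D1:**
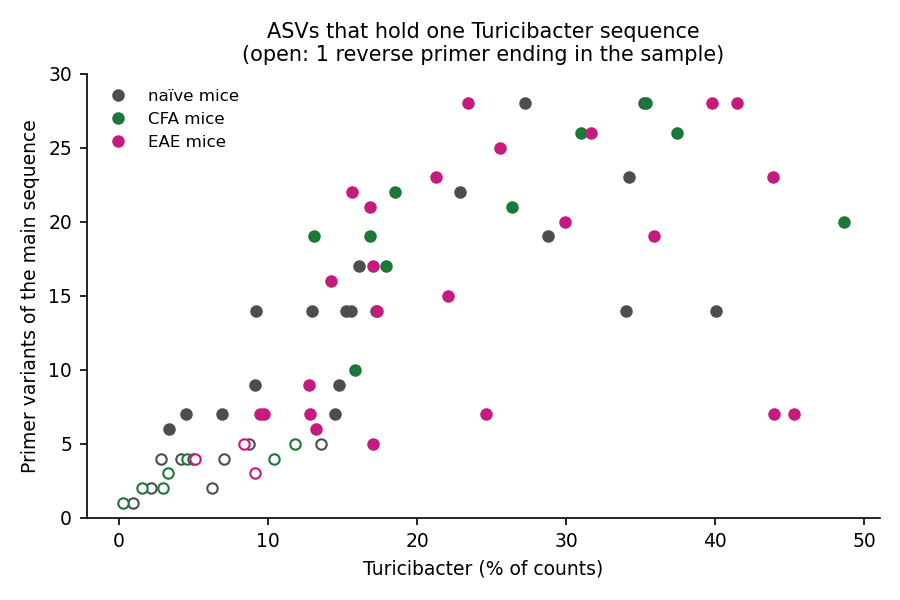
The number of primer variants (ASVs) of the most abundant Turicibacter sequence in each of the 72 samples that held it, against the percentage of the sample's counts that were Turicibacter. Points are samples, coloured by treatment, and open points are the 19 samples with 1 reverse primer ending, all of which lie under 15% Turicibacter.

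The 28 variants were not a fixed set. A sample with this sequence listed from 1 to 28 of them, with a median of 14. Of the 72 samples, 6 listed all 28 variants and 19 listed variants with a single reverse primer ending out of 9. Where Turicibacter was above 0 and under 5% of counts, 10 of 12 samples had 1 reverse ending and the median was 3.5 variants. Between 5 and 15%, 9 of 22 samples had 1 ending and the median was 7. At 15% or more, 0 of 38 samples did and the median was 20 variants. Counts per ASV therefore varied with the set of primer variants a sample listed as well as with the level of Turicibacter, and levels are given below by genus and family.

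Total counts per sample ranged from 9202 to 102437 with a median of 64586, and 4 samples, all of EAE mice, had under 20000. A floor of 3 counts, taken as the upper limit of a count of 0 by counting error, was at most 0.0326% of a sample's counts. Such floors cover counting error only, because amplified reads are not independent molecules. The lowest Turicibacter value above 0 was 164 counts, 0.247% of the sample. The 16 samples without Turicibacter had a median total of 65328 against 64142 in the others.

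Before immunization Erysipelotrichaceae held a moderate share of counts in every mouse. At -2 dpi the lowest, median and highest percentages were 6.24, 14.4 and 28.9% in naïve mice, 4.99, 12.4 and 17.6% in CFA mice, and 9.13, 15.1 and 36.1% in EAE mice. The 3 groups overlapped throughout, and no comparison between them passed the test. The log2 fold change was -0.58 ± 1.24 (SE) for CFA against naïve mice (adjusted p = 0.948), -0.50 ± 1.24 for EAE against naïve mice (adjusted p = 1) and 0.08 ± 1.24 for EAE against CFA mice (adjusted p = 1). These and the following values on the log2 scale are differences between groups in edgeR's quasi-likelihood test with Benjamini-Hochberg adjustment over all families tested. Their SE was derived as the size of the log2 fold change divided by the square root of the test's F statistic.

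**Figure D2:**
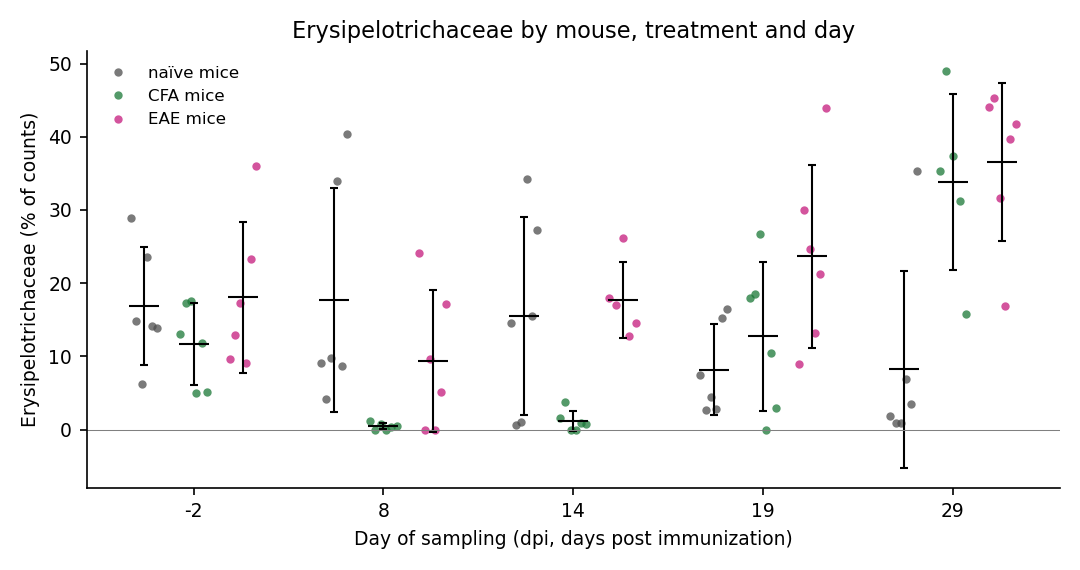
Erysipelotrichaceae as a percentage of all counts in each sample (vertical axis) at 5 days (horizontal axis). Points are mice, and lines with bars are the group mean ± SD. CFA mice lie at or under 1.10% at 8 dpi, and at 29 dpi the CFA and EAE mice lie between 15.8 and 49.0% while 5 of 6 naïve mice lie at or under 6.91%.

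In CFA mice the family nearly disappeared at 8 dpi. Turicibacter had 0 counts in 6 of 6 CFA mice, in samples of 31179 to 83614 counts, where the floor was at most 0.00962% in each. What was left of the family, 0.441% ± 0.421 of counts (SD, n = 6), was Erysipelatoclostridium-Clostridium XVIII in mice 543 (1.10%) and 545 (0.698%) and Absiella/Eubacterium D in mice 547 (0.406%) and 548 (0.446%). Mice 544 and 546 had no count of the family. Naïve mice at 8 dpi had 17.7% ± 15.4 (SD, n = 6), from 4.14 through a median of 9.46 to 40.4%, so the lowest naïve mouse was above the highest CFA mouse. The log2 fold change of the family was -5.78 ± 1.52 (SE, adjusted p = 0.00214). Turicibacter was 3395-fold lower in CFA than in naïve mice if 3 counts per sample are taken as the level of the CFA mice (adjusted p = 2.06e-07 over 65 genera). The size of this fold depends on that floor, and the lowest Turicibacter count above 0 in any sample was 164. The two-sided exact permutation test of percentages gave an adjusted p of 0.0281 for the family and of 0.0395 for Turicibacter, from p = 0.00216, the smallest that 6 against 6 mice allow.

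At 14 dpi CFA mice were still low. Family values were 0, 0.773 and 3.81% (lowest, median, highest) in CFA mice and 0.596, 15.0 and 34.2% in naïve mice. Turicibacter had returned in 3 of 6 CFA mice, at 1.53% in mouse 543, 3.30% in mouse 544 and 0.247% in mouse 548, and was at 0 in the other 3. The groups overlapped at this day, because naïve mouse 559 had no Turicibacter and naïve mouse 560 had 0.970%. The family difference was -3.73 ± 1.38 on the log2 scale (adjusted p = 0.0477), close to the threshold, and it did not pass without any 1 of 9 of the 12 mice (adjusted p up to 0.108) or in the exact permutation test of percentages (adjusted p = 0.129). Turicibacter alone gave -4.17 ± 1.65 (adjusted p = 0.0796).

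At 19 dpi CFA mice were spread more widely than naïve mice (SD 10.2 against 6.19%, n = 6 each). Mouse 546 was at 0 and mouse 548 at 2.94%, while the other 4 CFA mice had 10.4 to 26.7%, against 2.63 to 16.4% in naïve mice. The difference was 0.67 ± 1.24 on the log2 scale (adjusted p = 1).

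At 29 dpi the 5 CFA mice had 35.4, 49.0, 37.4, 31.3 and 15.8% (mice 543 to 547), and each was at its own highest level of the 5 days. Mouse 548, whose sample had no counts at this day, had the lowest mean Turicibacter of the CFA mice before. It had a mean of 2.04% and at most 4.99% over its 4 days. The naïve mice had a median of 2.65%, with 5 of 6 at or under 6.91% and mouse 563 at 35.4%. Turicibacter was at 0 in naïve mice 558, 559 and 560, where the whole family value of 0.899 to 1.83% came from Absiella/Eubacterium D and Erysipelatoclostridium-Clostridium XVIII. The means were 33.8% ± 12.0 (SD, n = 5) in CFA and 8.23% ± 13.5 (SD, n = 6) in naïve mice, but the log2 fold change of 2.07 ± 1.32 did not pass the test (adjusted p = 0.252). The exact permutation test of percentages gave p = 0.0130 and an adjusted p of 0.169. Without naïve mouse 563 the log2 fold change was 3.01 (adjusted p = 0.136).

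Between CFA and naïve mice, 8.7, 21.7, 17.4, 13.0 and 8.7% of the 23 families tested passed at the 5 days in turn. Of the 65 genera tested, 7.69, 21.5, 9.23, 7.69 and 7.69% passed at these days. Turicibacter at 8 dpi was the only one of the 4 genera tested in this family that passed in this comparison. Of the 648 ASVs tested, 0.0, 5.86, 5.25, 1.39 and 3.09% passed. The 35 ASVs of the family tested included 18 that were lower in CFA mice at 8 dpi and 12 at 14 dpi, and 0 at the other days, where 12, 9 and 4 had an unadjusted p under 0.05 at -2, 19 and 29 dpi. The share of all ASVs at that unadjusted threshold is not given. The ASVs that passed were all primer variants of the 1 Turicibacter sequence, so they are repeated readings of 1 sequence. The median log2 fold change of the 35 ASVs was -11.39 at 8 dpi and -10.03 at 14 dpi, beside 0.00 for all ASVs tested at both days. This median is mostly over variants of the same sequence, 28 of the 35, and not over separate members. Merged, that sequence gave -17.0 at 8 dpi, where CFA mice were at 0, and -4.17 at 14 dpi (adjusted p = 0.0652). The size of the value at 8 dpi depends on how the fit treats a group at 0 and does not estimate a fold. With primer variants merged, only the Turicibacter sequence at 8 dpi passed among the 6 sequences tested. The share of all merged sequences that passed is not given.

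**Figure D3:**
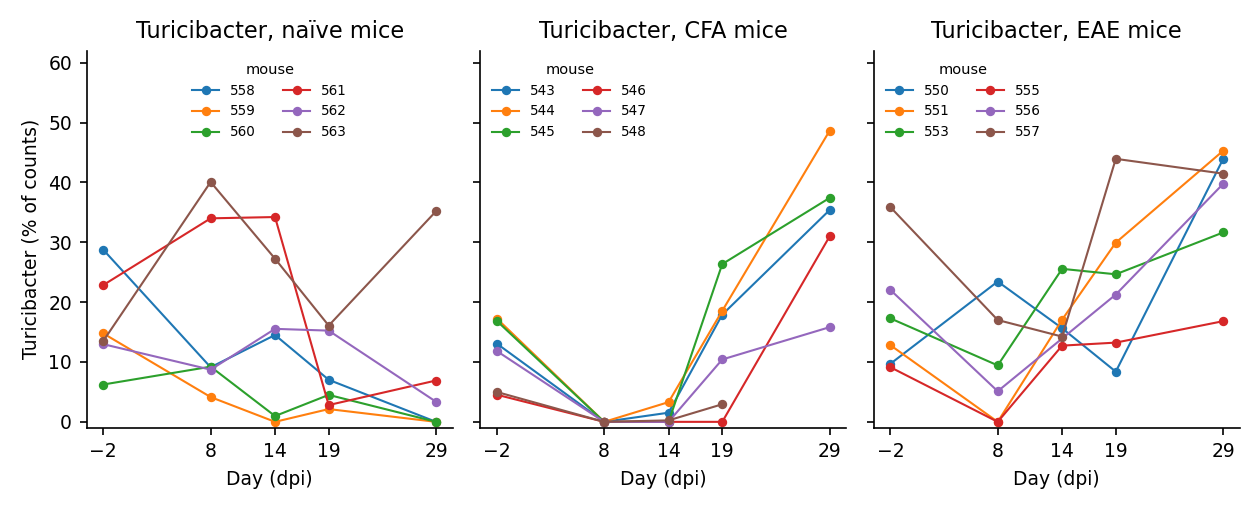
Turicibacter as a percentage of counts in each mouse (lines) over the days (horizontal axis), by treatment. EAE mice are named by the numbers of the first days; all 6 CFA lines touch 0 at 8 dpi, and the EAE lines of mice 551 and 555 do.

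EAE mice, which had received the same adjuvant, kept the family in 4 of 6 mice at 8 dpi. Mice 550, 553, 556 and 557 had 24.2, 9.68, 5.11 and 17.2%, and mice 551 and 555 had no count of the family. The samples of these 2 mice were among the 4 under 20000 counts, with totals of 17439 for mouse 551 and 9202 for mouse 555, where the floor is 0.0172 and 0.0326%. Both mice had Turicibacter at the following days. Against naïve mice the log2 fold change was -1.73 ± 1.27 (adjusted p = 0.373). In edgeR it was -0.92 when samples were scaled by total counts alone (adjusted p = 0.736). Without the 4 samples under 20000 counts it was -1.14 (adjusted p = 0.668).

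From 14 dpi on, every EAE mouse carried Turicibacter. The 5 EAE mice at 14 dpi had 17.9, 17.1, 26.2, 12.7 and 14.6% of the family (mice 588, 589, 591, 593 and 595), inside the naïve range, with a log2 fold change of -0.08 ± 1.30 (adjusted p = 1). At 19 dpi the EAE mice had 8.90, 23.0 and 43.9% (lowest, median, highest) against 2.63, 5.99 and 16.4% in naïve mice. The difference was 0.46 ± 1.24 on the log2 scale (adjusted p = 0.909), and 1.53 when samples were scaled by total counts alone (adjusted p = 0.447). The exact permutation test of percentages at 19 dpi gave p = 0.0195 and an adjusted p of 0.0844.

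At 29 dpi the family was abundant in every EAE mouse, from 16.8 through a median of 40.7 to 45.3%, and the mean was 36.5% ± 10.8 (SD, n = 6). Naïve mice had a mean of 8.23%, and naïve mouse 563 alone was within the EAE range. The log2 fold change was 1.94 ± 1.28 and did not pass (adjusted p = 0.277). The exact permutation test of percentages did pass for the family (difference of 28.3 percentage points, p = 0.00649, adjusted p = 0.0422), but not with counts of Lactobacillaceae left out of the denominator (27.9 percentage points, adjusted p = 0.0541) nor for Turicibacter among all genera (28.9 percentage points, adjusted p = 0.0790). Without naïve mouse 563 the log2 fold change was 2.88 (adjusted p = 0.116). Lactobacillaceae, the only other family given here, was at 31.8% ± 18.5 in naïve mice and at 2.61% ± 2.07 in EAE mice at this day (SD, n = 6 each). Because percentages share a total, a fall in one family raises the others. The part of this in the late values was measured only for Lactobacillaceae, by the change of denominator.

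Between EAE and naïve mice, 0.0, 17.4, 13.0, 26.1 and 26.1% of families passed at the 5 days in turn, 1.54, 12.3, 6.15, 6.15 and 9.23% of genera, and 0.0, 0.0, 5.71, 6.33 and 4.01% of ASVs. No genus and no ASV of the family passed edgeR's test at any of these days. With primer variants merged, the Erysipelatoclostridium-Clostridium XVIII sequence was lower in EAE mice at 29 dpi (edgeR, adjusted p = 0.0459). That genus had counts in 2 of 6 naïve and 0 of 6 EAE mice then, and the share of all merged sequences that passed is not given. At an unadjusted p under 0.05 there were 1 or 2 genera and 2 to 9 ASVs per day, and DESeq2 called 1 genus (Longibaculum/Candidatus Stoquefichus at 8 dpi, from 1 EAE mouse) and 11 ASVs over the 5 days. No share of all genera or ASVs is given at these 2 settings, so the counts do not set the family apart. Turicibacter at 29 dpi had a log2 fold change of 2.11 ± 1.51 (adjusted p = 0.471).

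**Figure D4:**
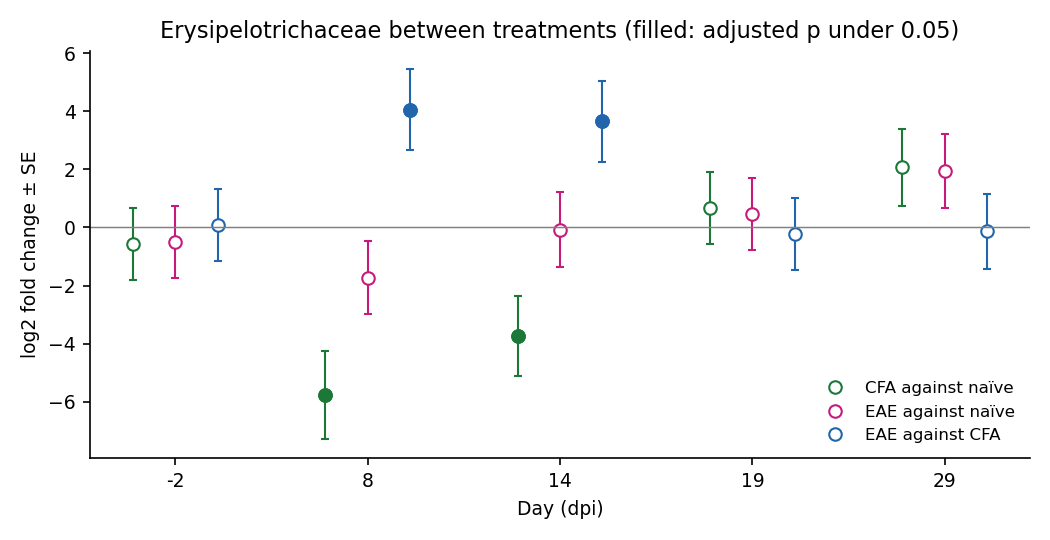
Log2 fold change of Erysipelotrichaceae from edgeR ± SE derived from the F statistic (vertical axis) for 3 comparisons of treatments at each day (horizontal axis). Filled points have an adjusted p under 0.05, which are CFA against naïve and EAE against CFA mice at 8 and 14 dpi.

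Between EAE and CFA mice a difference passed the test at 8 and 14 dpi. At 8 dpi the family was higher in EAE mice by 4.05 ± 1.40 on the log2 scale (adjusted p = 0.0186). Turicibacter in EAE mice (9.17% ± 9.49, SD, n = 6) was 1774-fold above the floor of 3 counts per sample in the CFA mice (adjusted p = 1.14e-06). This fold, too, depends on the floor. The groups still overlapped through the 2 EAE mice at 0, the exact permutation test of percentages did not pass (p = 0.0606, adjusted p = 0.281), and nor did edgeR with only these 2 groups in the fit (adjusted p = 0.206). Without the 4 samples under 20000 counts the value was 4.64 (adjusted p = 0.00643). At 14 dpi every EAE mouse, from 12.7%, was above every CFA mouse, up to 3.81%. The log2 fold change was 3.65 ± 1.40 (adjusted p = 0.0301), while Turicibacter alone gave 4.05 ± 1.67 and did not pass among the genera (adjusted p = 0.0704). For the family the exact permutation test of percentages gave p = 0.00433, the smallest for 6 against 5 mice, and an adjusted p of 0.0161. The edgeR test with only the 2 groups in the fit did not pass (adjusted p = 0.0944). At 19 dpi the difference was -0.21 ± 1.24 (adjusted p = 1), and at 29 dpi it was -0.13 ± 1.29 (adjusted p = 1), with mean percentages of 36.5% in EAE and 33.8% in CFA mice.

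Between EAE and CFA mice, 8.7, 39.1, 56.5, 30.4 and 26.1% of families, 3.08, 26.2, 13.8, 10.8 and 7.69% of genera and 0.0, 6.64, 9.26, 5.56 and 0.617% of ASVs passed at the 5 days. Of the 35 ASVs of the family, 17 were higher in EAE mice at 8 dpi and 16 at 14 dpi, all of them primer variants of the Turicibacter sequence, and 0 passed at the other days, where 10, 4 and 1 had an unadjusted p under 0.05. Here too, no share of all ASVs is given for the unadjusted counts. The median log2 fold change of the 35 was 9.20 at 8 dpi and 9.95 at 14 dpi, beside 0.00 for all ASVs tested. It is again mostly over variants of the same sequence. Merged, that sequence gave 15.3 at 8 dpi, where CFA mice were at 0 and the value does not estimate a fold. At 14 dpi it gave 4.05 (adjusted p = 0.0680). Besides Turicibacter, Erysipelatoclostridium-Clostridium XVIII passed at 8 dpi, with counts in 2 of 6 CFA mice and 0 of 6 EAE mice. It was 24.5-fold lower in EAE mice if 3 counts per sample are taken as their level (adjusted p = 0.0402). This call rests on those 2 CFA mice and was lost with scaling by total counts alone. The exact permutation test of percentages did not pass (adjusted p = 0.922), and this genus was already at 0 in 6 of 6 EAE mice at -2 dpi. The CFA and naïve samples are shared between these comparisons, so the comparisons are not independent of each other.

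Within CFA mice the early loss was seen in every animal. From -2 to 8 dpi the family fell in 6 of 6 CFA mice, by 11.2 percentage points on average (SD 5.50), and the log2 fold change was -5.01 ± 1.46 (adjusted p = 0.0114). At 14 dpi it was below the level of -2 dpi in 6 of 6 mice, at -3.65 ± 1.37 on the log2 scale (adjusted p = 0.0722), which edgeR did not call with or without pairing of the mice. The exact permutation test of percentages gave an adjusted p of 0.0141, but it shuffles the 12 samples without regard to the mouse. At 19 dpi 3 of 6 mice were above their first level. At 29 dpi it was 5 of 5, with a mean change of 20.8 percentage points (SD 10.4) and a log2 fold change of 1.30 ± 1.30 (adjusted p = 0.919). Outside Lactobacillaceae it was 4 of 5, with a mean change of 17.2 percentage points. With only CFA mice of 29 and -2 dpi in the fit the log2 fold change of 1.30 became 1.82 (adjusted p = 0.00681).

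Within EAE mice the family was lower at 8 than at -2 dpi in 5 of 6 mice (mean change -8.71 percentage points, SD 12.2), the exception being mouse 550. At 29 dpi it was higher in 6 of 6 mice, by 5.63 to 34.4 percentage points. As a percentage of counts outside Lactobacillaceae it was higher in 5 of 6 mice, and the mean change was 12.2 percentage points in place of 18.5. Neither day passed edgeR's test, with log2 fold changes of -1.03 ± 1.25 (adjusted p = 0.844) and 1.10 ± 1.25 (adjusted p = 0.779). In naïve mice, which were not treated, the family was lower at 29 than at -2 dpi in 5 of 6 mice, with a mean change of -8.67 percentage points (SD 16.4). Its log2 fold change of -1.35 ± 1.26 did not pass either (adjusted p = 0.636). Late differences from naïve mice thus held both higher values in the treated mice and lower values in the naïve mice than before. Of the 23 families, 0.0, 0.0, 4.35 and 4.35% passed at 8, 14, 19 and 29 dpi against -2 dpi in naïve mice, 8.7, 4.35, 4.35 and 4.35% in CFA mice, and 0.0, 8.7, 4.35 and 4.35% in EAE mice.

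The change since -2 dpi of each mouse was also compared between treatments, in 12 two-sided exact permutation tests. At 29 dpi the change was 29.5 percentage points greater in CFA than in naïve mice and 27.2 percentage points greater in EAE than in naïve mice (exact permutation p = 0.0130 and adjusted p = 0.0779 each). At 8 dpi it was 12.0 percentage points lower in CFA than in naïve mice (exact permutation p = 0.121, adjusted p = 0.223). None of the 12 passed after adjustment. CFA and EAE mice differed by 2.36 percentage points in their change at 29 dpi (exact permutation p = 0.745, adjusted p = 0.805).

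Naïve mice differed in their mean level of Turicibacter over the days, and most also varied widely between days. Mouse 563 had a mean of 26.4% over the 5 days, never under 13.5%, and mouse 561 had a mean of 20.2%, with days from 2.80 to 34.2%. Mice 559 and 560 had means of 4.21 and 4.19%, with 2 and 1 days at 0. In CFA mice the order was less wide at the start (4.53 to 17.3% at -2 dpi) and every mouse had at least 1 day at 0. CFA mouse 546 had 3 days at 0, at 8, 14 and 19 dpi, and then 31.0% at 29 dpi. Among EAE mice, mouse 555 (593 at the later days) was the lowest on average, with a mean of 10.4%, and mouse 557 (595) the highest, with 30.5%.

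**Figure D5:**
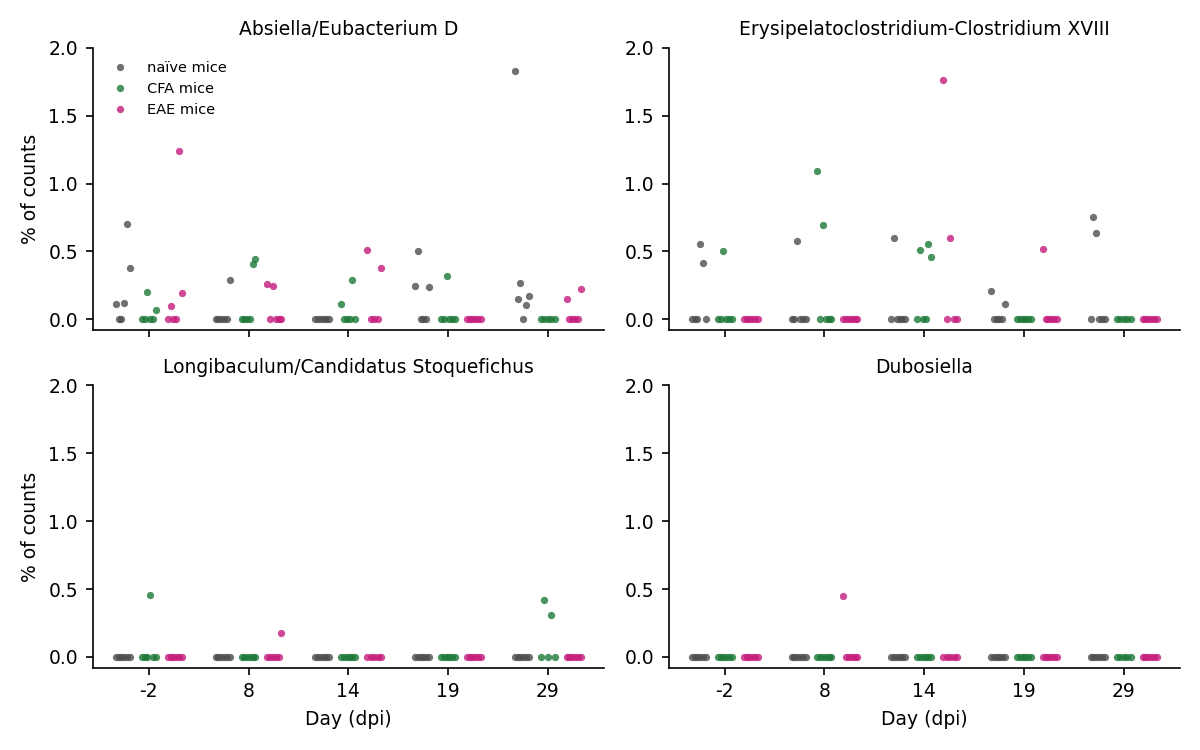
The 4 genera of the family other than Turicibacter as a percentage of counts in each sample, by day (horizontal axis) and treatment (colour), all on the same scale from 0 to 2%. Points are mice, most of them at 0; the highest is Absiella/Eubacterium D in naïve mouse 558 at 29 dpi, at 1.83%.

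The other genera were sparse and never held more than 1.83% of a sample. Absiella/Eubacterium D had counts in 5 of 6 naïve mice at 29 dpi (0.109 to 1.83%), in 0 of 5 CFA mice and in 2 of 6 EAE mice (0.152 and 0.224%) at that day. The difference between CFA and naïve mice at 29 dpi did not pass (adjusted p = 0.0581). At 14 dpi it was in 0 of 6 naïve, 2 of 6 CFA and 2 of 5 EAE mice. Erysipelatoclostridium-Clostridium XVIII had its highest value, 1.76%, in EAE mouse 588 at 14 dpi. It was found in 8 naïve, 6 CFA and 3 EAE samples and in no sample of CFA or EAE mice at 29 dpi, where 2 of 6 naïve mice had 0.751 and 0.633% (EAE against naïve mice, adjusted p = 0.0516). Longibaculum/Candidatus Stoquefichus was found in CFA mouse 546 at -2 and 29 dpi (0.453 and 0.307%), CFA mouse 544 at 29 dpi (0.420%) and EAE mouse 557 at 8 dpi (0.175%). It passed in no comparison with edgeR, while DESeq2 called it where 1 or 2 mice of a group had counts. Dubosiella, with 220 counts in EAE mouse 550 at 8 dpi (0.452%), was too sparse for the main edgeR test. It passed in no exact permutation test of percentages.

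Clinical score and the family were set against each other among the 6 EAE mice at 19 and at 29 dpi, the days with 6 scored mice and paralysis. At 19 dpi the mice without and with high scores were mixed in level, from 24.7% in mouse 591 with a score of 0 to 13.2 and 21.3% in mice 593 and 594 with a score of 4. Pearson's r was 0.029 (exact permutation p = 0.989, adjusted p = 0.989) and Spearman's rho -0.177 (exact permutation p = 0.767). At 29 dpi the mouse with the highest score, 3.75, had the lowest level, 16.8%, and the mouse with the lowest score, 2.25, the highest level, 45.3%. Pearson's r was -0.750 (exact permutation p = 0.0667, adjusted p = 0.133 over the 2 relations) and Spearman's rho -0.899 (exact permutation p = 0.0278, not adjusted). Without the 2 mice farthest from the median score r was -0.188. Leaving them out also narrows the range of scores, so this value cannot decide whether the relation depends on those mice.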

How the data were processed

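The V3–V4 stretch of bacterial 16S rRNA genes was amplified from fecal DNA and sequenced. The authors inferred ASVs with DADA2 (version not given in the sources used here), removed chimeras and deposited raw counts per ASV and sample, with taxonomy curated by hand from several databases. Of 89 samples in the count table, CFA mouse 548 at 29 dpi had no counts and was dropped. Water controls were not analysed here.

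Counts were summed by family and genus. edgeR 4.0.16 in R 4.3.3 (quasi-likelihood test, TMMwsp factors from genus counts) fitted the 15 groups together. Each test needed counts in 3 or more samples, with Benjamini-Hochberg adjustment over all taxa of a rank and a threshold of 0.05. The fit was also run on simulated counts of genera and ASVs with known changes and the same spread for every taxon. Families were not simulated, so that run does not show how the family test behaves. For percentages, exact permutation tests were two-sided (SciPy 1.17.1) and adjusted over all families or genera. Alternatives were DESeq2 1.42.0, total counts as the only scaling, no filter, fits of the compared groups alone, mice left out, merged primer variants, a denominator outside Lactobacillaceae and mouse as a replicate block. Same-numbered samples were taken as pairs because they come from the same animal, for EAE mice through the subject numbers of the sample table. Deviations from the group means over genera correlated with a median of 0.035 between days of 1 mouse and -0.002 between mice. Every genus of the family is named, sequences by genus and rank of counts, and Lactobacillaceae as the denominator. Members and lists were chosen with earlier results of these data known.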

Additional observations from a re-analysis of the deposited data

Results flagged for a closer look

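Naïve mouse 563 at 29 dpi stood apart from its group by a test for a single outlying value. Erysipelotrichaceae made up 35.4% and Turicibacter 35.2% of all its counts, while the next naïve mouse had 6.91% of either. Its gap to that mouse was 0.826 of the group's range for the family and 0.804 for Turicibacter. By chance about 1 in 20 groups pass the limit of this test, and 29 combinations of group and measure were looked at. The family and Turicibacter flags are 1 observation, because Turicibacter was nearly all of the family in this sample. The mouse had 40.4% of the family at 8 dpi and 27.3% at 14 dpi, and its total at 29 dpi was 91651 counts.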

How the results depend on the processing

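Of 501 alternative values for the 27 comparisons of the family, 442 kept their direction and their side of the threshold, and 12 of the 27 comparisons did so under every alternative run. Among these were the loss in CFA mice at 8 dpi against naïve mice and against -2 dpi; the change per mouse against naïve mice at 8 dpi, a test of its own, did not pass. The cause of the following changes was not tested. CFA against naïve mice at 14 dpi no longer passed with no filter (log2 fold change -3.73), with only these groups in the fit (-3.53), in percentages (-14.3 percentage points) or in percentages outside Lactobacillaceae (-19.9 percentage points), and gave -4.71 to -3.32 with each mouse left out. EAE against CFA mice no longer passed at 8 dpi with only these groups in the fit (4.09), in percentages (8.91 percentage points) or outside Lactobacillaceae (9.53), nor at 14 dpi with only these groups (3.64). EAE against naïve mice at 29 dpi passed in percentages (28.3 percentage points). CFA mice at 14 against -2 dpi passed with DESeq2 (-3.96), in percentages (-10.5) and outside Lactobacillaceae (-16.5), and gave -4.64 to -3.37 with each mouse left out, passing without mouse 544. CFA mice at 29 against -2 dpi passed with only these groups in the fit (1.82).

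Other values changed sign without passing in any setting. EAE against naïve mice at -2 dpi gave 0.17 with DESeq2, 0.10 with total counts only, 1.16 percentage points and 0.446 outside Lactobacillaceae, and at 14 dpi 0.19 with total counts only, 2.18 percentage points and -0.33 to 0.33 with each mouse left out. EAE against CFA mice gave -0.17 to 0.36 with each mouse left out at -2 dpi. At 19 dpi it gave 0.89 with total counts only, 10.9 percentage points, 4.53 outside Lactobacillaceae and -0.48 to 0.12 with each mouse left out, and at 29 dpi 0.11, 2.76, 0.310 and -0.32 to 0.26 in the same settings. Naïve mice at 8 against -2 dpi gave -0.504 outside Lactobacillaceae and -0.62 to 0.51 with each mouse left out, CFA mice at 19 dpi -0.13 to 0.49, EAE mice at 14 dpi -0.23 to 0.17, and EAE mice at 19 dpi 0.39 with total counts only, 5.60 percentage points and -0.23 to 0.16. With mouse as a replicate block these 4 were -0.54, -0.60, 0.12 and 0.017, and the paired fit changed no call of the 12 comparisons within treatments; CFA mice at 8 against -2 dpi gave -5.58. The difference in change per mouse outside Lactobacillaceae was -2.93 percentage points for EAE against naïve mice at 14 dpi and -2.77 for EAE against CFA mice at 19 dpi.

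Genera of the family called over the 5 days numbered 1 between CFA and naïve, 0 between EAE and naïve and 2 between EAE and CFA mice. These became 4, 1 and 5 with DESeq2, 1 for EAE against naïve mice with no filter (Erysipelatoclostridium-Clostridium XVIII at 29 dpi), and 1 for EAE against CFA mice with total counts only and in percentages. Calls of ASVs numbered 30, 0 and 33, became 64, 11 and 61 with DESeq2, 0 in the first and last with no filter, and 1 in each with primer variants merged (Turicibacter at 8 dpi in the first and last, Erysipelatoclostridium-Clostridium XVIII at 29 dpi between EAE and naïve mice). For DESeq2 and the other alternatives no share of all genera or ASVs is given, so these counts do not set the family apart. Leaving out each mouse in the groups of 6 and the 4 samples under 20000 counts were alternatives chosen after seeing the data. EAE mice 551 and 555 at 8 dpi were among the 4 samples of least depth, which limits what a count of 0 can show there.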
